A study of Mus musculus with 2 samples.

Results

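The cells described here were picked out of the embryonic mouse eye cup by a marker gate for retinal ganglion cells, the projection neurons of the retina. A cell entered the gate when it held at least 1 UMI (unique molecular identifier, the count of 1 captured RNA molecule) of Pou4f1 or Pou4f2, UMIs of at least 3 of the 5 supporting genes Isl1, Nrn1, Sncg, Nefl and Nefm, and UMIs of at most 1 of the 4 amacrine and horizontal cell factors Tfap2a, Tfap2b, Ptf1a and Prdm13. Of 36146 cells that passed the filters on genes and mitochondrial RNA, 74 met the gate. There were 23 of 17017 in the Myrf humWT/humWT library and 51 of 19129 in the Myrf humdG/humdG library. These measured values chose the cells, so the levels of the 11 gate genes are a description and not a finding. The data go partly against the name of the gate: only 12 of the 74 cells held 40 or more UMIs of the 7 markers, and 12 others were rich in RNA of connective tissue. They are therefore called gated cells, after the rule.

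The samples were E17.5 embryonic mouse eye cups, measured by single-cell RNA sequencing in droplets, with 1 pooled library for each genotype. Both groups were homozygous for a humanized Myrf allele, in which the last mouse exon is replaced by its human counterpart, so the controls (humWT) carry the human exon too. The humdG allele carries in addition the frameshift that alters the C-terminus of the MYRF protein, a transcription factor of the retinal pigment epithelium (RPE). The labels give 3 pooled eye cups and remove cornea, lens and optic nerve, whereas the study's methods differ in the number of eyes and keep the cornea, and a protocol in the labels names conditional knockout mice. With 1 library per genotype, genotype and library cannot be told apart. No test between genotypes was possible, and each interval below is an exact 95% interval for counting error only.

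Retinal ganglion cells are the first neurons that retinal progenitors make, and Atoh7, a helix-loop-helix factor of the progenitors, is needed for them to form. The homeodomain factors Pou4f1, Pou4f2 (Brn3a and Brn3b) and Isl1 then run the ganglion cell program. Each cell sends an axon through the optic nerve to the brain, and the neurofilaments Nefl and Nefm, the synuclein Sncg and the membrane-anchored neuritin Nrn1 are abundant in such long-axon neurons. The cell body stays in the eye cup when the nerve is cut.

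In the mm10 build, Pou4f1 lies on chr14:104461676-104467999 and Pou4f2 on chr8:78433010-78436645, both on the minus strand. Isl1 (chr13:116298281-116309689), Nrn1 (chr13:36725361-36735131) and Sncg (chr14:34370274-34374789) are also on the minus strand. Nefl (chr14:68083863-68089095, plus strand) lies within the annotated span of Nefm (chr14:68082590-68124846, minus strand). How the counting used strand is not given in the sources used here, so the split of reads between these neurofilament genes is uncertain.

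The humWT library held 129135207 UMIs in 17421 barcodes and the humdG library 114319529 UMIs in 19565 barcodes. The median kept cell had 3785 UMIs in humWT and 2574 in humdG. The gated cells stood apart from this depth mainly in humWT, with a median of 24323 UMIs against 4890 in humdG. A total of 93 kept barcodes occurred in both libraries, and 0 of them belonged to a gated cell.

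Gated cells made up 0.135% of kept humWT cells (interval 0.0857 to 0.203) and 0.267% of kept humdG cells (0.199 to 0.350). The shares depended on depth. Among cells with 20000 UMIs or more, 13 of 1285 humWT cells (1.01%) and 6 of 825 humdG cells (0.727%) met the gate, and these intervals overlapped (0.540 to 1.72 and 0.267 to 1.58). Between 2500 and 5000 UMIs the shares were 0.0904% (6 of 6634) and 0.433% (15 of 3464). The humdG share was the higher in each range below 20000 UMIs and the lower above it.

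Most of the cells only just met the gate. Of the 23 humWT cells, 14 had 3 supporting genes, 6 had 4 and 3 had all 5, and of the 51 humdG cells the numbers were 29, 9 and 13. A single UMI of Pou4f1 and Pou4f2 together admitted 9 humWT and 26 humdG cells. Just outside the threshold, with 2 supporting genes, stood 30 and 78 cells. Stmn2, a microtubule regulator of growing axons that the gate did not use, was at 140 CPM (UMIs scaled to a total of 1000000) in the humWT cells with 3 supporting genes and also at 140 CPM in those just outside. Gap43 was at 162 and 144 CPM, Ina at 99.1 and 46.6 CPM and Tubb3 at 65.3 and 46.6 CPM. The humWT cells with 3 supporting genes included deep cells rich in connective tissue RNA, described below, so their sums are weighted towards these. The deepest had 186763 UMIs, with 1 of Stmn2 and 0 of Gap43. In humdG the values were 606 and 359 CPM for Stmn2, 507 and 227 CPM for Gap43, 308 and 130 CPM for Ina and 426 and 249 CPM for Tubb3. Cells with all 5 supporting genes held 4572 CPM of Stmn2 in humWT and 4343 CPM in humdG. The amacrine rule kept out a further 15 and 45 cells, and 11 of the humWT and 16 of the humdG gated cells had 1 of its 4 factors, most often Tfap2b (10 and 11 cells).

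A Pou4f UMI alone separated little. It was found in 723 kept humWT cells (4.25%) and 1407 humdG cells (7.36%), of which 494 and 818 had 0 of the 5 supporting genes. Red blood cells, which should lack these factors, were taken as the cells with at least 50% globin UMIs. Among them 8 of 170 (median 6160 UMIs) and 7 of 145 (median 5225 UMIs) held a Pou4f UMI. In pooled UMIs, the 7 gate markers amounted to 0.342 per 10000 in the humWT red blood cell gate and 0.461 in all humWT cells outside the ganglion cell gate. In humdG the values were 0.705 and 1.17.

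The gated cells differed widely in how much of their RNA the markers took up. After the values were seen, the cells were split into 3 ranges, which are not cell types. Marker-rich cells had 40 or more UMIs of the 7 markers (4 humWT and 8 humdG). Mesenchyme-rich cells drew 1% or more of their UMIs from a list of 22 mesenchyme genes (8 and 4). The others numbered 11 and 39. Near the first limit, 3 cells had 20 to 39 marker UMIs and 3 had 40 to 59. Near the second, 8 cells had 0.5 to 1% and 2 had 1 to 2%. In all other cells the mesenchyme list summed to 17147 CPM in humWT and 8010 CPM in humdG. The 1% limit thus lay below the summed level of the other humWT cells and above that of the other humdG cells. The marker limit is a count and so favours deep cells: 4 of the 11 humWT and 19 of the 39 humdG others had a marker rate at or above 23.2 per 10000 UMIs, the lowest of the marker-rich cells. By rate, 36 of the 74 gated cells were at or above this value.

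**Figure D1:**
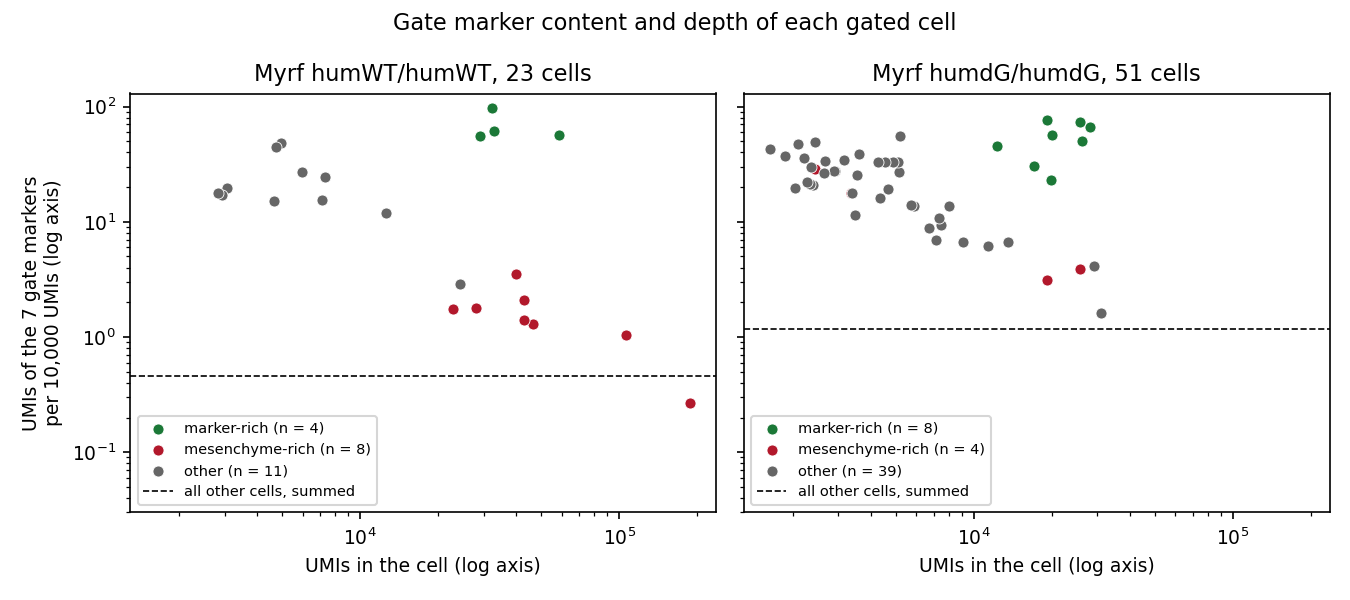
UMIs of the 7 gate markers per 10000 UMIs (log axis) against the UMIs of each gated cell (log axis), in humWT (left, 23 cells) and humdG (right, 51 cells), coloured by range, with the summed rate of all other kept cells as a dashed line. The 12 marker-rich cells lie at 23.2 or more, the 8 humWT mesenchyme-rich cells lie between 0.268 and 3.52, and 1 of them, the deepest gated cell, is under the line for other cells.

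The median marker rate was 59.0 per 10000 UMIs in the marker-rich humWT cells and 53.5 in the marker-rich humdG cells. It was 17.7 and 22.0 in the others. In the mesenchyme-rich cells it was 1.58 in humWT and 10.9 in humdG. The marker-rich cells, which were chosen on these markers, ranged from 55.4 to 96.7 in humWT and from 23.2 to 76.8 in humdG, and 4 of the 8 humdG cells lay below the lowest humWT cell.

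Because deep cells weigh most in a sum, the ranges contributed unequally to the summed RNA. The 8 mesenchyme-rich humWT cells held 68.8% of all UMIs of the gated humWT cells, and the 4 such humdG cells held 11.3%. The marker-rich cells held 20.4% and 37.4%, and the others 10.8% and 51.3%. A single humWT cell with 186763 UMIs gave 25.0% of the library's gated UMIs. It held 5 marker UMIs, a rate of 0.268 per 10000 that was below that of the library's other cells, and 6267 UMIs of Col1a1, the main collagen of connective tissue. Sums over all gated humWT cells are therefore weighted towards the mesenchyme-rich cells, and several are also given below without them or for the marker-rich cells alone.

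The 4 marker-rich humWT cells had 58453, 32926, 32148 and 29039 UMIs and, in the same order, 329, 203, 311 and 161 marker UMIs. Sncg had the widest range in UMIs, with 188, 35, 172 and 70 UMIs. Nefl gave 74, 89, 64 and 31 UMIs and Isl1 15, 43, 17 and 22. Pou4f1 was found in all 4 (21, 4, 19 and 3 UMIs), whereas Pou4f2 was found in 2 of them (7, 0, 0 and 5). The cells with the most Sncg had the most Pou4f1, and the cell with the most Isl1 had the least Sncg.

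The 8 marker-rich humdG cells were shallower, with 12305 to 28116 UMIs and a median of 19904. They held 46 to 190 marker UMIs with a median of 122.5. Sncg ranged from 7 to 103 UMIs (median 36.5) and Isl1 from 7 to 41 (median 24). Both factors were detected in most of these cells, Pou4f1 in 7 of 8 with up to 12 UMIs and Pou4f2 in 8 of 8 with 1 to 6. Both Pou4f genes were found in 7 of 8 marker-rich humdG cells and in 2 of 4 marker-rich humWT cells.

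Genes that the gate did not use were also high in the marker-rich cells. Gap43, a protein of the growing axon tip, had 164, 86, 103 and 144 UMIs in the 4 humWT cells, in the order above, and 32 to 146 (median 93.5) in the 8 humdG cells. Stmn2 had 203, 112, 150 and 194 UMIs in humWT and 23 to 148 (median 116) in humdG. In the mesenchyme-rich cells the most Gap43 in any cell was 10 UMIs in humWT and 18 in humdG, so for this gene the ranges did not overlap in UMIs. Col1a1 had the opposite order, with at most 9 and 5 UMIs in a marker-rich cell and 223 to 6267 in the mesenchyme-rich humWT cells. The mesenchyme-rich humdG cells held 4 to 544, which overlaps the marker-rich cells, and Col1a1 belongs to the list that made this range.

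Atoh7 set the marker-rich cells apart from each other. One humWT cell held 81 UMIs, another 2, and the remaining cells 0. The cell with 81 had no Calb2, 20 UMIs of Cntn2 and 46 of Igfbpl1, and it had the fewest Pou4f1 UMIs of the 4. The calcium-binding protein Calb2 showed the reverse, with 64, 48 and 320 UMIs in the 3 cells with little or no Atoh7. In humdG all 8 marker-rich cells held Atoh7, from 1 to 49 UMIs (median 7.5), and Calb2 ranged from 0 to 15. Over all gated cells, Atoh7 was found in 5 of 23 humWT cells (21.7%, interval 7.46 to 43.7) and 21 of 51 humdG cells (41.2%, 27.6 to 55.8). Red blood cells were at 8.24% and 19.3% and all other cells at 10.2% and 27.7%, so the share was the higher in humdG outside the gate too. After thinning to 1000 UMIs a cell, the gated shares were 4.35% (0.110 to 21.9) and 19.6% (9.82 to 33.1), and those of all other cells 3.40% and 13.2%. The most Atoh7 in any gated cell, 82 UMIs, was in a humdG cell outside the marker-rich range.

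**Figure D2:**
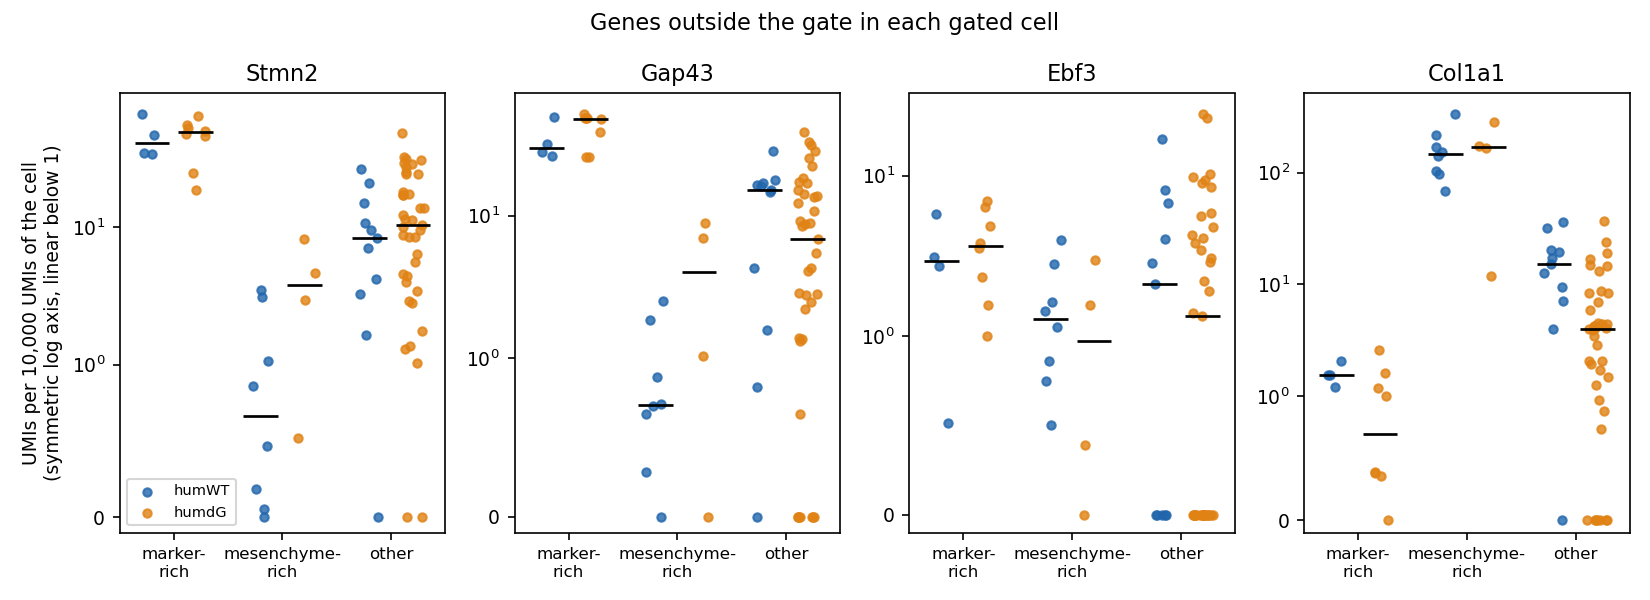
UMIs of Stmn2, Gap43, Ebf3 and Col1a1 per 10000 UMIs of each gated cell (symmetric log axis, linear below 1), by range and library, with a bar at the median. Stmn2 and Gap43 are highest in the marker-rich cells of both libraries, Col1a1 is highest in the mesenchyme-rich cells, and Ebf3 is spread over all 3 ranges.

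The sexes were unevenly spread over the libraries. Xist, the RNA of the inactive X chromosome, and the Y-linked genes Ddx3y, Uty, Eif2s3y and Kdm5d were used as signs of female and male cells. All 4 marker-rich humWT cells held Y-linked UMIs and 0 held Xist. Of the 8 marker-rich humdG cells, 5 held only Xist, 1 held only Y-linked UMIs and 2 held both. Over all gated cells, 0 humWT and 15 humdG cells had Xist without a Y-linked UMI, 7 and 10 had the reverse, and 9 and 8 had both. The part of sex in any difference between the libraries was not tested.

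Ganglion cell subtypes could hardly be read at this depth. Pou4f1 alone was found in 13 humWT and 29 humdG cells, Pou4f2 alone in 2 and 9, and both in 8 and 13. Isl2, a factor of contralaterally projecting ganglion cells, was found in 4 humWT and 7 humdG cells. Zic2, which marks ipsilaterally projecting ones, was found in 2 and 5. Eomes (Tbr2), known from the melanopsin-containing intrinsically photosensitive cells, had UMIs in 1 and 2 cells, and Tbr1 in 0 and 1. With 0 of 23 humWT cells, up to 14.8% of cells could hold a Tbr1 UMI (exact interval), which does not limit the share of cells that express it. Of 32 subtype markers, 26 had a UMI in humWT and 27 in humdG, but only 5 had the 20 UMIs in both libraries needed to be measured.

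The summed RNA of the gated cells was compared with that of all other kept cells of the same library. Genes were counted when they had at least 20 UMIs in the gated cells of each library and were at least 2-fold higher, or lower, in both. Of 4207 such genes 275 were higher (6.54%) and 21 were lower (0.499%). Since the cells were chosen by their own RNA, these counts describe the gate and carry no test. The values show what went with the markers.

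The 20 genes furthest above the other cells, with the 11 gate genes left out and at least 100 UMIs in each library, included many of the neuronal cytoskeleton and growing axon. Others, among them the leading gene, were of other kinds. Igfbpl1, a secreted protein of the insulin-like growth factor binding family (chr4:45809468-45826923), led with a log2 ratio of 5.36 in humWT (interval 5.08 to 5.64, 133 UMIs in 9 cells) and 4.93 in humdG (4.72 to 5.14, 209 UMIs in 20 cells). Stmn2 (chr3:8509360-8561606), next by the smaller of the libraries' ratios, which ordered the genes, was at 3.85 (758 UMIs) and 3.83 (1012 UMIs). Its relative Stmn3 was at 4.18 and 3.75. Over all gated cells the ratios of Stmn2 were close in the libraries, but without the mesenchyme-rich cells they were 5.47 and 3.98, and those of Igfbpl1 were 7.02 and 5.11.

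Among the other leading genes, Gap43 had log2 ratios of 3.45 in humWT (598 UMIs) and 4.66 in humdG (922 UMIs). The neuronal tubulin Tubb3 was at 3.28 and 3.47, the intermediate filament Ina at 4.20 and 3.61, and tau (Mapt) at 3.71 and 2.90. Crabp1, a retinoic acid binding protein, was at 3.47 and 3.97. Gng3, a neuronal G protein subunit, was at 3.87 and 3.68. Last in that order was Nkain3, at 2.17 and 3.37. The others included Rtn1, Uchl1, Tubb2b, Tubb2a, Kctd16, Nell2, Crmp1, Tagln3 and Elavl3. The tubulins Tubb2a and Tubb2b are close copies, so the split of reads between them is uncertain. For 19 of the 20 genes the ratio was larger in the marker-rich cells of both libraries than in all gated cells. The exception was Kctd16 in humdG (1.85 against 2.70).

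**Figure D3:**
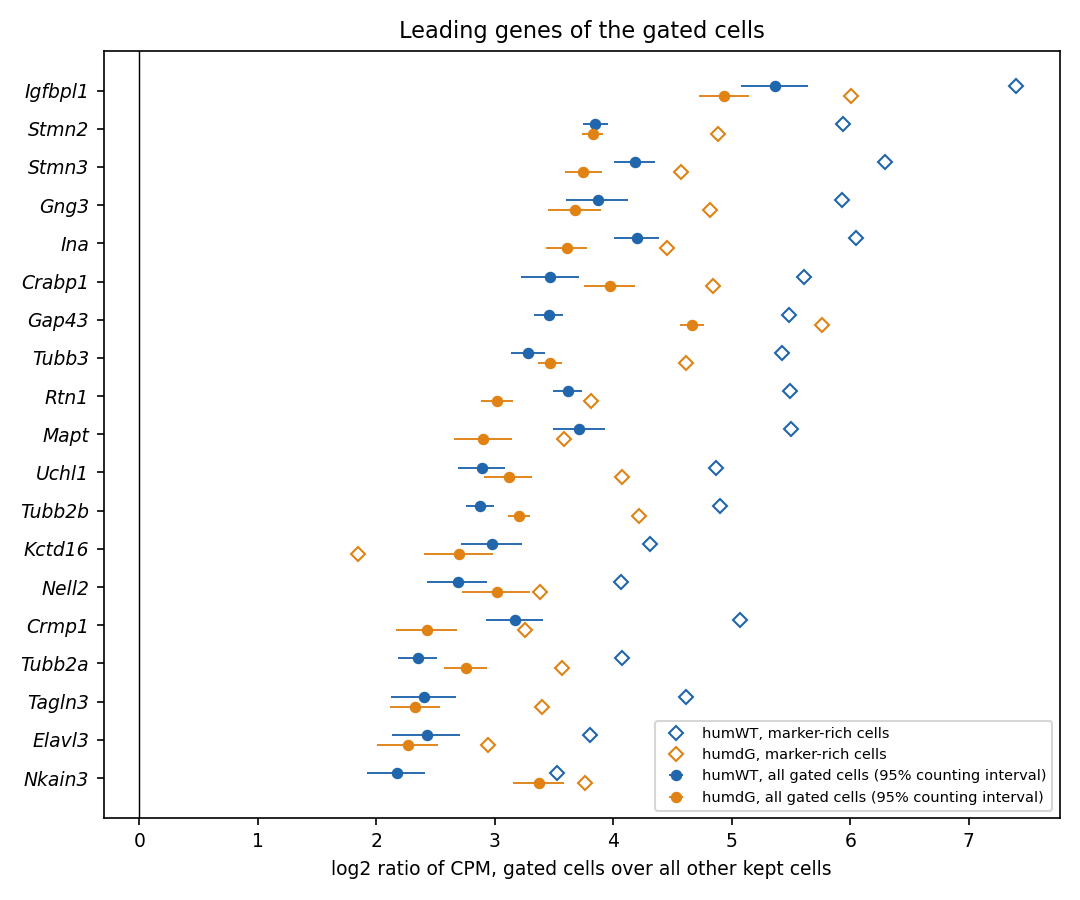
Log2 ratio of CPM in gated cells to CPM in all other kept cells of the same library for 19 of the 20 leading genes, with filled points for all gated cells (line, exact 95% counting interval) and open diamonds for the marker-rich cells. Igfbpl1 is the highest in both libraries, and the diamonds lie to the right of the filled points except for Kctd16 in humdG.

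Of the ganglion cell transcription factors outside the gate, 11 of 22 measured were at least 2-fold higher in both libraries. Ebf1, a helix-loop-helix factor of early ganglion cells, had the most UMIs, with log2 ratios of 1.56 in humWT (697 UMIs) and 3.02 in humdG (786 UMIs). The related Ebf3 was at 1.43 and 2.69, the zinc finger factor Klf7 at 1.77 and 2.63, and the homeobox factor Barhl2 at 2.96 and 3.03. Lmo1, a LIM-only factor, was at 2.31 and 3.97. Myt1l, Myt1, Bcl11b, Rbfox3, Irx2 and Sox11 were also higher. Atoh7 missed the limit over all gated humWT cells (0.92) and was at 1.33 in humdG. Without the mesenchyme-rich cells it passed in both (2.54 and 1.49), with 81 of the 83 humWT UMIs in 1 cell.

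Of the genes of ganglion cell identity and maturation, all 15 measured outside the gate passed 2-fold in both libraries. As for every list, a gene was measured only with at least 20 UMIs in the gated cells of each library. This left out genes that were low in the gated cells. Of the list's 34 genes, 19 were measured when gate genes are counted, and Nefh and Pvalb had 0 UMIs in both libraries. The vesicular glutamate transporter Slc17a6 was at 4.42 (36 UMIs) and 4.16 (34 UMIs). The RNA-binding protein Elavl4 was at 3.79 and 4.37. Rbpms, an RNA-binding protein used to label ganglion cells in the adult retina, was at 1.77 and 2.75. Of the 37 axon and microtubule genes measured, 30 were higher, with a median smaller log2 ratio of 2.10 against 0.05 over all genes.

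Guidance and adhesion genes were mixed, with 10 of 35 higher. Cntn2, an adhesion molecule of outgrowing axons (chr1:132509427-132543256), was at 5.30 in humWT (36 UMIs) and 5.57 in humdG (151 UMIs). L1cam was at 3.13 and 2.65, Nfasc at 3.14 and 2.95, and Epha6 at 2.60 and 3.10. The guidance receptors Robo2 (0.88 and 1.04) and Dcc (0.69 and 0.68), although well measured, did not pass 2-fold in both. At equal depth Dcc was found in a smaller share of gated than of amacrine and horizontal cells in humdG, and the intervals overlapped in humWT, as given below.

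Genes of the synapse and of excitability were intermediate. Of 19 synaptic and vesicle genes, 11 were higher, among them Syt4 (2.11 and 2.87) and Rab3a (2.08 and 2.18). The synaptic genes Snap25 (1.09 and 0.81) and Syt1 (1.41 and 0.83) passed in humWT only, and the difference between the libraries was not tested. Of 16 voltage-gated channel genes, 8 were higher, with Kcnh7 at 3.01 and 2.56 and Cacna1b at 2.86 and 2.84. Among 12 secreted signals and trophic receptors, 3 were higher, namely Igfbpl1, Gal and Fgf12. Of the 7 genes of position within the retina, 2 were higher, the ventral factor Vax2 (1.33 and 1.59) and Epha6.

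Some genes of dividing cells were lower, though most members of these lists did not pass. Of 16 retinal progenitor markers 0 were higher and 4 were lower, and of 8 Notch and neurogenic genes 0 were higher and 2 were lower. The Notch targets Hes1 (−1.36 and −1.74) and Hes5 (−1.97 and −1.54) and the cyclin Ccnd1 (−1.12 and −1.46) were among the 21 lower genes. So were 5 of 10 histone genes, whose copies share reads and are uncertain one by one, the globin Hbb-bs (−2.56 and −1.99) and the pigment genes Dct (−1.74 and −2.14) and Pmel (−1.62 and −2.24). Photoreceptor markers, of which 5 were measured, had 0 in either direction.

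RNA of other cell types was present in the gated cells and unequal between the libraries. All 22 mesenchyme markers had UMIs in the gated humWT cells, with a summed level of 36019 CPM against 17147 CPM in the other humWT cells, and Col1a1 was the most abundant (11395 UMIs). In humdG, 20 of 22 had UMIs, the sum was 7038 against 8010 CPM, Col1a1 gave 1115 UMIs, and Foxc2 and Acan were at 0. The marker-rich cells held 459 CPM in humWT and 261 CPM in humdG, less than the red blood cell gate of the same library (2412 and 1097 CPM). The defining collagens were common everywhere: UMIs of all 3 collagen markers were found in 90.6% of all other humWT cells and 34.8% of all other humdG cells, and in 21 of 23 and 27 of 51 gated cells. The part of free RNA and of doublets in these values was not tested.

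Several gated cells also met the rules for other cell types. In humWT, 8 had 3 of the 5 photoreceptor markers, 8 had 3 of the 4 progenitor markers and 10 had 3 of the 7 pigment cell markers, and 6 of each were mesenchyme-rich. Of all other humWT cells, 4.502%, 7.90% and 15.99% did so. In humdG the numbers were 5, 3 and 3 of 51, against 5.82%, 14.3% and 5.59% of all other cells. These rules count single UMIs and so favour deep cells, and depth was not matched here. The median was 24323 UMIs in gated and 3782 in all other humWT cells, 42862 in the mesenchyme-rich humWT cells, and 4890 and 2568.5 in humdG. An excess over other cells can therefore not be read from these numbers. A doublet score (Scrublet, the top 5% of each library) marked 0 of 23 humWT and 1 of 51 humdG gated cells, and no cell was removed for it.

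Other neurons that share Pou4f1, Isl1 and neurofilaments were looked for by their own markers. The peripheral sensory neuron list had UMIs in 11 of 18 genes in humWT and 7 in humdG, with sums of 81.5 and 60.04 CPM, against 52.7 and 42.7 CPM in the other cells. In humdG its most abundant gene was P2rx3 (11 UMIs), and the defining genes Prdm12, Tlx3 and Avil were at 0 in both libraries. The autonomic list summed to 66.8 and 71.2 CPM, against 26.3 and 19.3 CPM in the other cells, with UMIs in 6 and 3 of 14 genes. Its most abundant gene was the monoamine transporter Slc18a2 (33.4 and 62.3 CPM, 25 and 28 UMIs), the list's single measured gene, which was higher in both libraries (3.23 and 3.40), and Phox2a, Hand1, Hand2 and Dbh were at 0.

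RNA of further cell types was also present. Red blood cell genes summed to 2268 and 2887 CPM in the gated cells, below the 13264 and 11625 CPM of the other cells, with UMIs in 5 and 6 of 10 genes and Hbb-bs as the most abundant (891 and 678 UMIs). Lens genes were at 57.5 and 2.22 CPM (7 and 1 of 14 genes, Cryab the most abundant) and macrophage genes at 28.1 and 17.8 CPM (8 and 4 of 10 genes), with Ptprc and Tyrobp at 0. Muscle genes were at 1333 and 231 CPM, against 926 and 376 CPM in the other cells, with Ttn the most abundant (489 and 53 UMIs). RPE and melanocyte genes were at 720.5 and 238 CPM, with Rpe65 and Best1 at 0. Endothelial genes were at 167 and 202 CPM, Schwann and glial genes at 163 and 256 CPM, and surface epithelium genes at 127 and 80.1 CPM.

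At equal depth Gap43 was found in a larger share of the gated cells than of the other gates, but not in the mesenchyme-rich humWT cells. Each cell was thinned to 1000 UMIs, and the share of cells with a UMI was compared with an amacrine and horizontal cell gate and with red blood cells. The amacrine and horizontal gate took cells with at least 2 of the 4 amacrine and horizontal factors. The photoreceptor precursor and progenitor gates asked for 3 of 5 and 3 of 4 markers. All 3 took only cells without a Pou4f UMI, and cells that met more than 1 of the comparison gates were left out. Gap43 was found in 52.2% of gated humWT cells (interval 30.6 to 73.2, n = 23) and 54.9% of gated humdG cells (40.3 to 68.9, n = 51). In humWT it was found in 4 of 4 marker-rich cells, 8 of 11 others and 0 of 8 mesenchyme-rich cells (interval 0 to 36.9). In humdG the numbers were 8 of 8, 19 of 39 and 1 of 4. In the amacrine and horizontal gate it was found in 6.75% (681 cells) and 8.06% (1054 cells), and in the red blood cell gate in 1.18% (170 cells) and 2.07% (145 cells). Without thinning the gated shares were 91.3% at a median of 24323 UMIs and 84.3% at 4890 UMIs, and the red blood cell shares were 10.6% at 6160 UMIs and 20% at 5225 UMIs. The cells that were too shallow to be thinned numbered 5 in the humdG amacrine and horizontal gate and 0 among the gated cells.

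Other genes separated the classes less evenly. Stmn2 was found in 34.8% of gated humWT (16.4 to 57.3) and 66.7% of gated humdG cells (52.1 to 79.2) at this depth, against 18.9% (16.1 to 22.1) and 30.5% (27.7 to 33.3) of amacrine and horizontal cells, so the intervals overlapped in humWT. The gated humWT share pooled 4 of 4 marker-rich cells, 4 of 11 others and 0 of 8 mesenchyme-rich cells. In red blood cells the shares were 1.76% and 9.66%, but at this depth such a cell showed a median of 189.5 and 215 genes, against 683 and 638 in the gated cells. Ebf1 was found in 39.1% and 58.8%, against 14.8% and 8.25% of amacrine and horizontal cells. Its gated humWT share pooled 3 of 4 marker-rich cells, 2 of 11 others and 4 of 8 mesenchyme-rich cells. Rbpms was found in 17.4% (interval 4.95 to 38.8) and 33.3% (20.8 to 47.9), against 5.58% (3.98 to 7.58) and 3.89% (2.81 to 5.24) of amacrine and horizontal cells, with intervals that overlapped in humWT only. Tubb3 in humWT was found in 26.1% of gated cells (10.2 to 48.4) and 23.1% of amacrine and horizontal cells, a difference not detectable at this depth. In humdG it was found in 60.8% (46.1 to 74.2) of gated and 37.0% of amacrine and horizontal cells, with intervals that did not overlap.

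Dcc in humdG had a lower share in the gated cells than in amacrine and horizontal cells, and Snap25 a lower share than in photoreceptor precursors. Dcc was found in 13.0% of gated humWT cells (2.78 to 33.6) and 17.6% of gated humdG cells (8.40 to 30.9), against 33.3% (29.8 to 37.0) and 36.1% (33.1 to 39.0) of amacrine and horizontal cells. The intervals overlapped in humWT and did not overlap in humdG. Snap25 was found in 17.4% and 19.6% of gated cells, against 45.9% and 47.2% of photoreceptor precursors, and the intervals did not overlap in either library. Amacrine and horizontal cells were at 11.3% and 17.6%, within the gated intervals (4.95 to 38.8 and 9.82 to 33.1), and retinal progenitors at 1.69% and 2.67%, below them. Pax6, the eye field factor that ganglion and amacrine cells keep, was found in 21.7% and 33.3%, against 30.2% and 44.7% of amacrine and horizontal cells, with intervals that overlapped in both libraries.

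**Figure D4:**
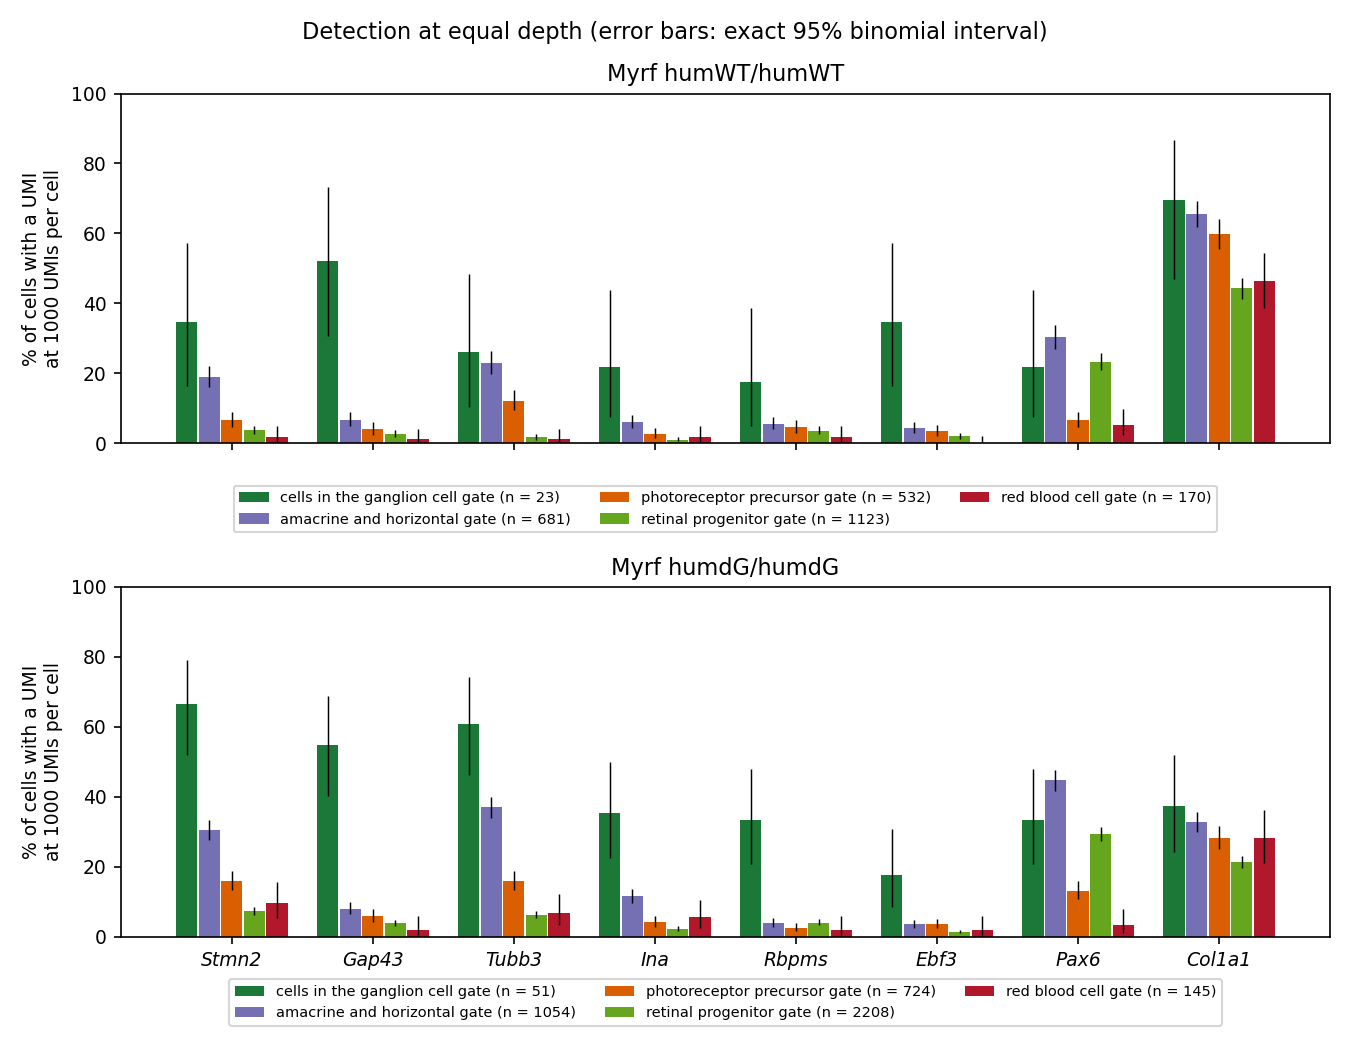
Percent of cells with at least 1 UMI of 8 genes after thinning each cell to 1000 UMIs, for the ganglion cell gate and 4 other gates in humWT (top) and humdG (bottom), with exact 95% binomial intervals. The intervals of Gap43 in all gated cells (52.2% and 54.9%) lie above those of the 4 other gates, whereas those of Pax6 and Col1a1 do not.

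Between the libraries, the sums over all gated cells gave higher medians for the axon, identity and transcription factor lists and lower connective tissue levels in humdG. Of 8780 genes whose UMIs in the 2 libraries together reached 20, 548 were at least 2-fold higher in humdG (6.24%) and 1216 at least 2-fold lower (13.8%). With the gate genes left out, of 40 axon and microtubule genes 14 were higher and 0 lower (median log2 ratio 0.73), of 21 identity and maturation genes 10 were higher and 0 lower (0.98), and of 32 transcription factors 9 were higher and 3 lower (0.72). Of 20 mesenchyme markers 0 were higher and 16 lower (−2.11). The median over all genes was −0.03. In all other cells of the libraries the medians had the same signs for the 4 lists, with values of 0.79, 0.71, 0.47 and −1.04 in the same order, and 0.05 over all genes. Further neuronal lists were mixed over all gated cells. Of 12 subtype markers 3 were higher and 3 lower (−0.41), and of 59 guidance and adhesion genes 6 were higher and 7 lower (0.17). Of 33 synaptic genes 4 were higher and 0 lower (0.50), and of 25 channel genes 7 were higher and 3 lower (0.43).

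Most of this turned on which cells were summed. Without the mesenchyme-rich cells, 362 of 5673 genes were higher in humdG (6.38%) and 295 lower (5.2%), and the median of the axon and microtubule genes was −0.31 and that of the identity and maturation genes −0.32. In the marker-rich cells alone they were −0.022 and 0.10, with 1 of 39 and 3 of 19 genes higher and 2 and 0 lower. There, 154 of 2888 genes were higher in humdG (5.33%) and 264 lower (9.14%). The transcription factors were at 0.33 without the mesenchyme-rich cells, with 4 of 26 higher and 2 lower, and at 0.49 in the marker-rich cells, with 6 of 20 higher and 3 lower. With gate genes included, their median was smaller when cells were gated at 2000 UMIs. It turned negative in cells with Y-linked UMIs and no Xist, as given in the closing section. The mesenchyme markers were at −0.94 without the mesenchyme-rich cells (5 of 11 lower) and at −0.28 in the marker-rich cells (0 of 3 lower). These markers defined the mesenchyme-rich cells, so the value without those cells is partly set by the rule. The sign of the mesenchyme median turned when cells were gated at 2000 UMIs (2.08, 3 genes), where fewer cells met the gate. It also turned in cells with Y-linked UMIs and no Xist (1.36, 12 genes).

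**Figure D5:**
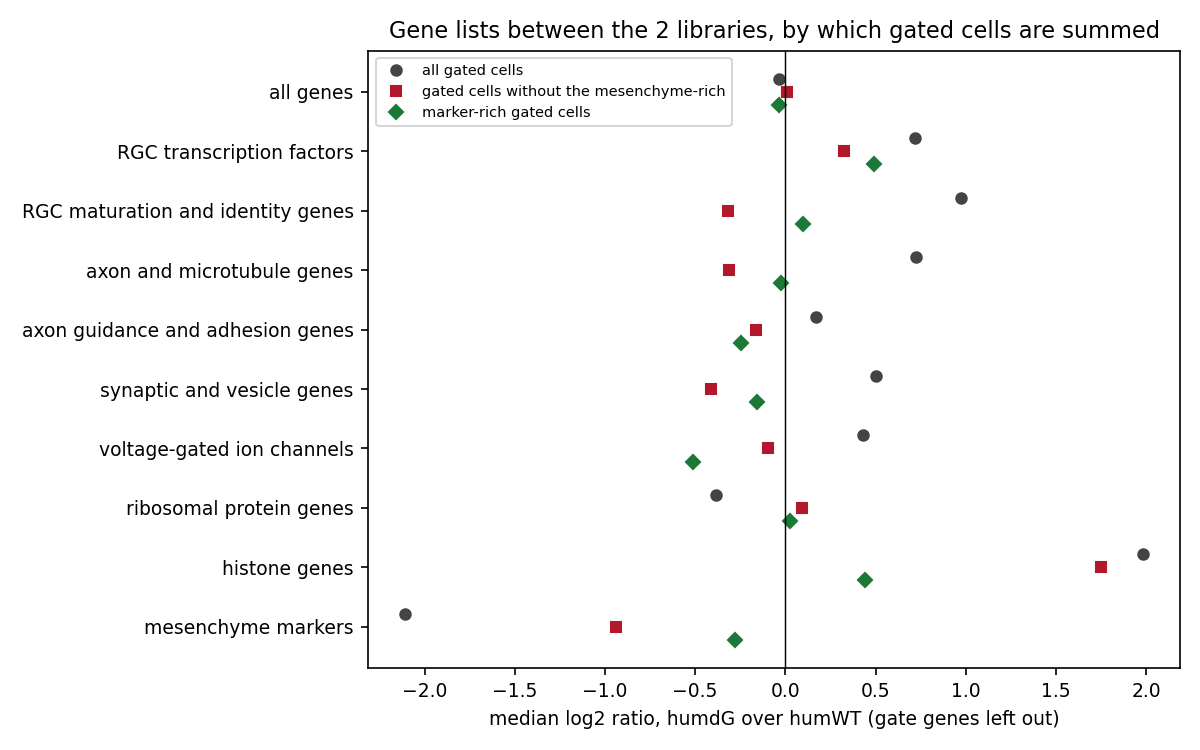
Median log2 ratio of humdG to humWT over the genes of each list, gate genes left out, summing all gated cells (circles), the gated cells without the mesenchyme-rich (squares) or the marker-rich cells (diamonds). The axon and microtubule genes are at 0.73, −0.31 and −0.022, whereas the median over all genes is at −0.03, 0.01 and −0.03.

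In the marker-rich cells, Sox11 and Cntn2, which the gate did not use, were more than 2-fold higher in humdG. In all other cells the log2 ratios were 0.95 for Sox11 and 2.53 for Cntn2. Sox11, a factor of young neurons, had 85 UMIs in humWT and 242 in humdG, a log2 ratio of 1.37 (interval 1.01 to 1.74), and Cntn2 had 26 and 115 (2.00, 1.38 to 2.68). These are 4 cells against 8, and the spread between cells was wide: the humWT cells held 3, 3, 0 and 20 Cntn2 UMIs and the humdG cells 6 to 28.

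Calb2 and Isl2 were lower in the marker-rich humdG cells and unevenly spread over the humWT cells. Calb2 had 432 UMIs in humWT and 31 in humdG (−3.94, −4.52 to −3.42), and 320 of the 432 were in 1 cell, although 2 further humWT cells, at 64 and 48, were also above the 15 UMIs of the highest humdG cell. Isl2 had 19 and 3 UMIs (−2.80, −5.20 to −1.04), all of the 19 in 2 cells. In all other cells both genes were higher in humdG (1.07 and 1.59). Gap43 (0.43, 0.26 to 0.59) and Tubb3 (0.65, 0.47 to 0.83) were within 2-fold. Stmn2, with 659 and 790 UMIs, was at 0.12 (−0.03 to 0.27).

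The 10 genes lowest in humdG relative to humWT over all gated cells were also lower in all other humdG cells, by log2 ratios between −1.15 and −2.59. Tnmd, a tendon membrane protein, had 584 UMIs in humWT and 2 in humdG (−7.46, interval −10.5 to −5.60). Kera, the corneal proteoglycan keratocan, had 322 and 0 UMIs, and against a floor of 3 UMIs over the group it was at least 64.5-fold lower. The tendon factor Scx (243 and 0 UMIs) was at least 48.7-fold lower and Egfl6 (186 and 0) at least 37.3-fold lower. These folds take the humWT counts as they are, without their counting error. The exact intervals, which include it, ended at smaller log2 ratios of −5.71 for Kera, −5.30 for Scx and −4.91 for Egfl6. Htra1, Fmod, C1qtnf3, Cilp, Col11a2 and Mkx made up the rest. For each of the 10, a single humWT cell held between 58.3% and 74.2% of the humWT UMIs, and in the marker-rich cells the most UMIs of any of these genes in either library was 3.

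Among the 10 highest in humdG, Cdk8, a kinase of the Mediator complex (chr5:146231230-146302874), came first with 439 UMIs in humWT and 2773 in humdG (3.39, interval 3.25 to 3.54). It had 39 and 576 UMIs in the marker-rich cells (3.74, 3.27 to 4.25). Without the mesenchyme-rich cells Cdk8 had 343 and 2442 UMIs, a smaller log2 ratio of 2.06. It was also higher in humdG in the amacrine and horizontal gate (1.85), in the red blood cell gate (1.20) and in all other cells (1.50). Cdk8 gave 4879 of the 1140260 UMIs of the red blood cell gate in humWT and 8203 of 837016 in humdG. In both libraries this was a larger part than in the gated cells (587 and 6167 CPM), so the counts were not particular to them. Where they came from was not tested. AY036118, annotated as a long noncoding RNA (chr17:39847113-39848035), had 813 and 2578 UMIs (2.40). It too took up a larger part of the UMIs in the red blood cell gate (8983 and 8902 UMIs) than in the gated cells (1087 and 5733 CPM). Its log2 ratio was 1.03 without the mesenchyme-rich cells, 2.09 in the marker-rich cells and 0.59 in all other cells. Gm42418, the most abundant transcript and chosen after its values were seen, was at 10435 CPM in marker-rich humWT cells and 37262 CPM in marker-rich humdG cells. It was at 98313 and 80541 CPM in all other cells. The part of these transcripts in the other differences was not tested.

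Others of the highest 10 were of several kinds. The histone genes Hist1h4h (2.77), Hist1h4d (2.75) and Hist1h1e (2.18) were also higher in all other humdG cells (1.83, 1.86 and 1.51). In the marker-rich cells they were at 0.97, 1.18 and 1.35. Of 31 histone genes over all gated cells 25 were higher and 1 lower, but of 8 in the marker-rich cells 3 were higher and 3 lower. Cntn2 was at 2.80, against 2.53 in all other cells, but at 1.36 without the mesenchyme-rich cells. A single humWT cell held 55.6% of its humWT UMIs. The noncoding RNA Gm30382 was at 2.19. Atoh7 had 87 and 234 UMIs (2.16, 1.80 to 2.53), with 93.1% of the humWT UMIs in 1 cell. In the marker-rich cells its ratio was 0.48 (0.07 to 0.90), in all other cells 1.76, and in the amacrine and horizontal, photoreceptor and progenitor gates 1.23, 1.40 and 1.25. Xist (2.14) went with the sexes given above.

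Myrf itself gave few UMIs in these cells, 11 UMIs in the gated humWT cells and 5 in the gated humdG cells. This was 14.7 and 11.1 CPM, against 17.2 and 7.78 CPM in all other cells. The marker-rich cells held 0 and 1 UMIs. The replaced last exon was shared by both groups, and no difference in Myrf was detectable in the gated cells at this depth (log2 ratio −0.40, interval −2.28 to 1.24).

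Ribosomal and mitochondrial RNA differed more between the ranges than between the marker-rich cells of the 2 libraries. Ribosomal protein genes summed to 98515 CPM in marker-rich humWT and 101533 CPM in marker-rich humdG cells. In the others they summed to 56905 and 80890 CPM, and in the mesenchyme-rich cells to 134933 and 86058 CPM. Mitochondrial UMIs had medians of 2.58% and 2.55% in the marker-rich cells and 3.48% and 4.04% in the others. Of 20 dissociation and early response genes, 18 had UMIs in humWT and 14 in humdG, summing to 2157 and 2308 CPM. Their part in the comparisons was not tested.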

How the data were processed

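The deposited counts were UMIs per gene and barcode from droplet libraries, 1 per genotype. The submitters' processing notes name Cell Ranger 7.1.0, Seurat 4.1.1 and the mm10 build, and whether intronic reads were counted is not given in the sources used here. Barcodes with over 500 genes and under 15% mitochondrial UMIs were kept. No doublets were removed. UMIs were summed over cells and scaled to a total of 1000000 (CPM), and shares and ratios were given exact 95% Clopper-Pearson or conditional binomial intervals. With 1 library per genotype, no p-value was computed, and a gene was called when it passed 2-fold. Genes had at least 20 UMIs. Named genes were the gate genes, the 20 leading genes with at least 100 UMIs in each library, the 10 highest and 10 lowest ratios with at least 100 UMIs, up to 8 examples per list, Myrf, Cdk8, Xist and 4 Y-linked genes. The members and lists were chosen with earlier results of these data known. Leaving out the mesenchyme-rich cells or the deepest humWT cell and keeping only marker-rich cells were chosen after seeing the data. A few genes are not reported here. Positions are from the GENCODE annotation of mm10. The steps ran in Python 3.11.15 with numpy 2.4.6, scipy 1.17.1, pandas 2.3.3, scanpy 1.11.5 and matplotlib 3.10.9 and were tested on simulated data.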

Additional observations from a re-analysis of the deposited data

How the results depend on the processing

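One pooled library per genotype and 74 gated cells limit every value, and most differences between the libraries turned on which cells were summed; beyond what each rule leaves out, the cause was not tested. No paired analysis was possible because each genotype has 1 library. The shares (humWT 0.135%, humdG 0.267%) became 0.0823% and 0.131% with 2 Pou4f UMIs, 0.311% and 0.674% with 2 supporting genes, 0.0529% and 0.115% with 4, 0.0705% and 0.183% with no amacrine factor, 0.0262% and 0.102% gated at 2000 UMIs per cell, and 0.439% in humdG with over 1000 genes. The humdG share was the higher under each of these settings, but among cells with 20000 UMIs or more it was the lower (0.727% against 1.01%). Of these settings, gating at 2000 UMIs gave the smallest share in both libraries. Each value at 2000 UMIs, here and below, therefore rests on few cells, above all in humWT. Genes higher in gated than other cells (275 of 4207 measured) numbered 105 of 1802 with no amacrine factor and 92 of 393 at 2000 UMIs. Genes higher in humdG (548 of 8780) numbered 300 of 5264 with 4 supporting genes, 52 of 1435 at 2000 UMIs, 154 of 2888 in marker-rich cells, 360 of 8138 without the deepest humWT cell and 362 of 5673 without the mesenchyme-rich. Genes lower (1216 of 8780) numbered 179, 264 and 295 of the genes measured at 2000 UMIs, in marker-rich cells and without the mesenchyme-rich. Fewer genes were measured in each of these, so the counts are not losses of calls among the same genes.

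With gate genes included, the transcription factor median (0.73) was 0.26 with 2 supporting genes, 0.20 at 2000 UMIs, 0.25 as a mean over cells, 1.34 with no amacrine factor, 0.30 without the mesenchyme-rich and −0.15 in cells with Y-linked UMIs and no Xist. The axon and microtubule median (0.73) was 0.42 with 4 supporting genes, −0.42 at 2000 UMIs, −0.16 in marker-rich cells, 0.17 as a mean over cells, −0.73 in Y-linked cells, 0.47 without the deepest humWT cell and −0.31 without the mesenchyme-rich. The histone median (1.98) was 2.92 with 2 supporting genes, 0.87 with 4, 0.69 at 2000 UMIs, 0.44 in marker-rich cells and 0.88 after subtracting the red blood cell gate. The mesenchyme median (−2.11) was −3.97 with 4 supporting genes, 2.08 at 2000 UMIs, −0.28 in marker-rich cells, 1.36 in Y-linked cells, −4.65 with no amacrine factor and −0.94 without the mesenchyme-rich.

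Nefl, within counting error of 0 over all gated cells (0.25), was −0.24 with 4 supporting genes, −1.05 at 2000 UMIs, −0.093 as a mean over cells, −1.91 in Y-linked cells, −1.25 without the mesenchyme-rich, −0.99 in marker-rich cells and −0.17 without the deepest humWT cell. Other single genes that changed sign were, at 2000 UMIs, Col1a1 (1.85), Gap43 (−0.10), Igfbpl1 (−0.69), Ina (−0.45), Nefm (−0.53), Pou4f2 (−0.38), Sncg (−0.12), Stmn2 (−0.26) and Tubb3 (−0.23). In marker-rich cells they were Ina (−0.022), Nefm (−0.16), Pou4f1 (−0.70) and Sncg (−0.33). In Y-linked cells they were Col1a1 (0.77), Gap43 (−0.81), Igfbpl1 (−0.26), Ina (−0.90), Isl1 (−0.74), Nefm (−0.36), Nrn1 (−2.48), Pou4f1 (−0.59), Pou4f2 (−2.48), Sncg (−2.64), Stmn2 (−0.78) and Tubb3 (−0.41). Without the mesenchyme-rich they were Gap43 (−0.11), Igfbpl1 (−0.10), Ina (−0.46), Nefm (−0.39), Nrn1 (−0.18), Pou4f1 (−0.79), Pou4f2 (−0.026), Sncg (−0.72) and Stmn2 (−0.32). Cells with Xist and no Y-linked UMI gave no value, since humWT had 0 of them.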
